A study of Mus musculus with 12 samples.

Results

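Mice lacking both gastrin and cholecystokinin (CCK) were compared with saline-infused mice lacking gastrin alone, on expression arrays of mucosa from the gastric fundus, where acid is made. The comparison took 6 of the 12 arrays of the series, chosen by their labels: the 3 of the gastrin-CCK double knockout and the 3 of the saline-infused gastrin knockout. It used 22626 of the 22690 probe sets on the array, after 64 control probe sets were set aside. The saline-infused animals were gastrin knockout males, 2 months old, infused with saline for 1 week. For the double knockout the labels give no infusion, age or sex. The loss of CCK and any difference in infusion, age or sex cannot be told apart as sources of a difference between the groups. Eif2s3y, on the Y chromosome, read 1407, 1712 and 1213 in the saline-infused and 1307, 1586 and 1123 in the double knockout, with overlapping groups (adjusted p = 0.813). Gastrin is missing from both groups. The remaining arrays, 3 of wild-type mice (each from about 2 to 4 animals) and 3 of gastrin knockouts infused with gastrin for 1 week, served to estimate the spread and as levels to set beside. The RNA came from scrapings of the mucosa. Whether the samples in a group are separate animals is not labelled. The p-values therefore measure only how far these samples spread, which could be technical. In scraped tissue, fewer cells of a type and less RNA per cell cannot be told apart.

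Gastrin is released by G cells of the antrum and acts through the CCK2 receptor, encoded by Cckbr, on enterochromaffin-like (ECL) cells, whose histamine drives the parietal cells to secrete acid. CCK, a hormone of the upper intestine and a brain peptide, shares its active end with gastrin. It binds the CCK2 receptor as gastrin does, and with high affinity it also binds the CCK1 receptor, encoded by Cckar, which is found on the somatostatin-releasing D cells. Somatostatin restrains both ECL and parietal cells. The fundic glands further hold pepsinogen-secreting chief cells and mucus cells of the surface and neck. The comparison addresses what the loss of CCK adds where gastrin is already missing.

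The 3 double-knockout arrays stood apart from the other 9 in ways not limited to mouse genes. Array medians were alike, between 403 and 421 over all 12 arrays, but the highest intensity was 65365 to 71514 on the double-knockout arrays and 88899 to 113441 on the other 9. Of the 18 probe sets for the hybridization controls BioB, BioC, BioD and Cre, bacterial and phage transcripts added in the laboratory, double-knockout values lay above all other 9 arrays in 6 and below them in 6. In the 27 other bacterial control probe sets (Dap, Lys, Phe, Thr and Trpn) they overlapped the other 9 arrays. The middle probe set of BioB, a bacterial control, read 1169, 1183 and 1701 on the double-knockout arrays and 335, 269 and 272 on the saline-infused arrays, a ratio of means of 4.63. The 5' probe set of BioC, another such control, read 1784, 1997 and 2307 against 7472, 6942 and 5967. The Gapdh signal at the 3' end over that at the 5' end, a measure of RNA integrity, was 1.29 to 1.32 in the double knockout, 1.01 to 1.18 in the saline-infused knockout and 0.983 to 2.00 in wild type. How far handling of these arrays contributes to the differences between the groups was not tested, and genotype and array handling cannot be told apart.

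**Figure D1:**
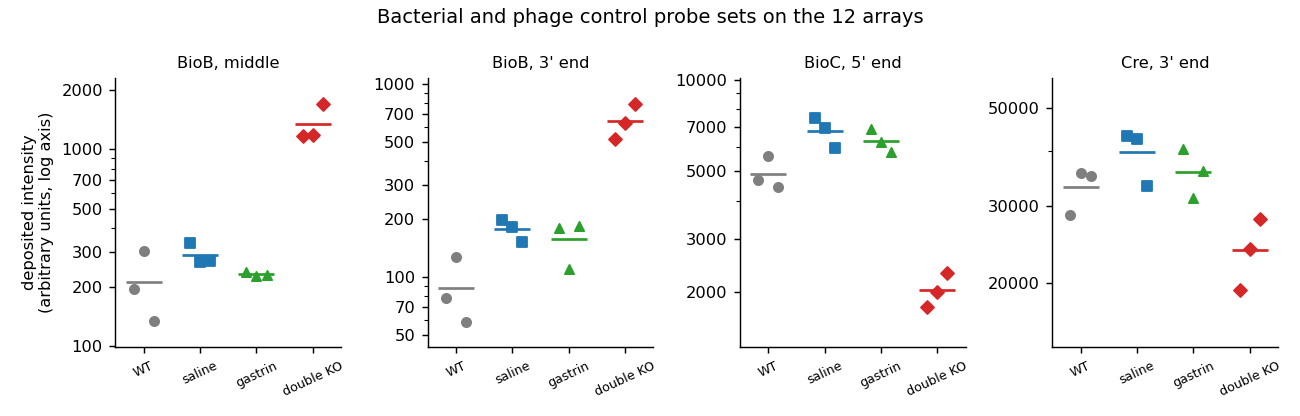
Deposited intensity (arbitrary units, log axis) of 4 hybridization control probe sets on each of the 12 arrays, by group; points are arrays and horizontal bars are group means. The double-knockout arrays lie above all others for BioB (1169 to 1701 for the middle probe set, against 134 to 335) and below all others for BioC and Cre.

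Relative to the saline-infused knockout, and with 3 arrays a group, the double knockout had higher levels of the hormone gene Sst (1.78-fold), the parietal channel gene Kcnq1 (1.93-fold), the chief cell gene Pnliprp2 (2.01-fold) and the secretory factor gene Xbp1 (2.25-fold). It had lower levels of the myosin gene Myh9 (3.47-fold), the chaperone gene Hspa1b (2.23-fold), the hormone-responsive gene Fkbp5 (2.04-fold) and the NF-kappa B inhibitor gene Nfkbia (1.65-fold). The ECL cell gene Chga did not pass the test, and the very bright mucus and pepsinogen genes were lower on the deposited scale alone. The calls of Sst, Kcnq1 and Hspa1b did not hold with some single arrays left out. Myh9, Fkbp5, Nfkbia and Xbp1 also had probe sets that did not pass, and another probe set of Xbp1 fell. Errors and tests are given with each gene below.

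Differences between the groups were tested with limma on log2 values, with values under 16 raised to 16, and p-values were adjusted over all 22626 probe sets by the Benjamini-Hochberg method. Below, each fold change is the double knockout over the saline-infused knockout on the log2 scale, with its standard error, and a gene is said to have risen or fallen where the adjusted p was under 0.05. A call is said to end without an array where the adjusted p was no longer under 0.05 with that array left out of the model, for each of the 9 double-knockout, saline-infused and wild-type arrays. On the deposited values 1352 probe sets passed (5.98%), of which 728 were higher (3.22%) and 624 lower (2.76%) in the double knockout. They belonged to 1011 distinct genes. Which direction held more calls changed with the setting: median centring gave 499 higher and 578 lower, the Gapdh ratio as a covariate 429 and 482, and leaving out double-knockout replicate 2 gave 371 and 519, or saline-infused replicate 3 gave 427 and 430. The direction depended on brightness: of the 325 probe sets with a mean intensity above 16000, 0 passed as higher and 153 as lower, and the median log2 fold change among them was -0.39. After quantile normalization, which gives every array the same distribution of values, that median was -0.02 and 19 were higher and 17 lower. Over all probe sets quantile normalization gave 1477 calls (6.53%), 839 higher (3.71%) and 638 lower (2.82%). On both scales 1078 probe sets passed. For bright genes both values are therefore given. The count fell to 496 and 890 without double-knockout replicate 1 or 2, to 590, 605 and 857 without saline-infused replicate 1, 2 or 3, and to 208 with the model fitted to the 6 compared arrays alone.

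**Figure D2:**
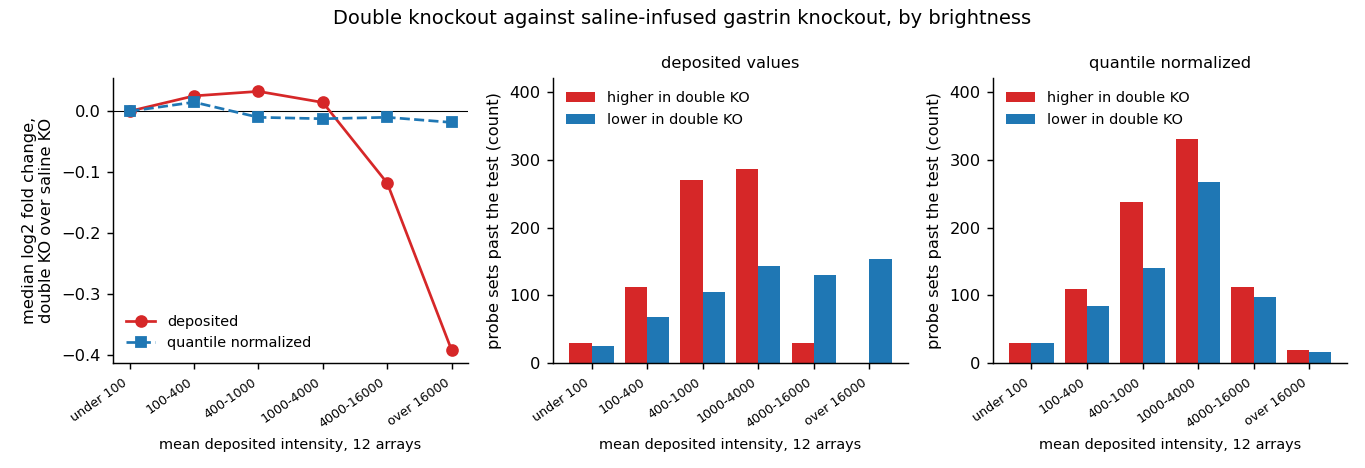
Median log2 fold change of the double knockout over the saline-infused knockout (left) and number of probe sets past the test in each direction (middle, deposited values; right, quantile normalized), by mean deposited intensity over the 12 arrays. In the brightest bin, above 16000, the deposited values have a median of -0.39 with 153 lower and 0 higher, while the quantile-normalized values have a median of -0.02 with 17 lower and 19 higher.

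The targeted genes could not serve as a check of the labels. Gast, encoding gastrin, read 37, -8 and 31 in the saline-infused and -64, -35 and -162 in the double knockout, values around or below 0 in a gene made mainly in the antrum. The Cck probe set read 68, 39 and 70 in the saline-infused, 40, 54 and 130 in the double knockout and 17, 98 and 48 in wild type, so it lay near the noise in every group, wild type included. The receptor of CCK, Cckar, was measured at 1881, 1673 and 2045 in the saline-infused knockout (mean 1866 ± 186) and 2815, 2421 and 2793 in the double knockout (mean 2676 ± 221). The groups did not overlap, but the difference did not pass (log2 fold change 0.52 ± 0.13, adjusted p = 0.0557), and the wild-type values of 2273, 3080 and 2877 lay in the range of the double knockout. Cckbr, the receptor shared by both hormones, read 237, 304 and 374 in the saline-infused and 396, 367 and 257 in the double knockout, with overlapping groups and a fold change of 0.16 ± 0.22 (adjusted p = 0.761). Among 13 measured genes of gastrin and CCK signalling, 1 rose and 0 fell by their brightest probe set, beside 2.9% higher and 2.66% lower among the brightest probe sets of all 12393 genes. After quantile normalization those background shares were 3.62% and 3.03%. That gene was Itpr2, a calcium release channel of the endoplasmic reticulum through which both receptors signal.

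Itpr2 was measured by 5 probe sets, of which 2 passed. The clearer of the pair read 350, 337 and 387 in the saline-infused knockout (mean 358 ± 25.9) and 1006, 714 and 666 in the double knockout (mean 795 ± 184). All double-knockout values were above all saline-infused values (log2 fold change 1.13 ± 0.20, adjusted p = 0.0148), and the second rose by 0.94 (adjusted p = 0.035). Itpr3, a second channel of the same family, differed by -0.45 ± 0.14 (adjusted p = 0.102). The calls of the Itpr2 probe sets ended without saline-infused replicate 2 (highest adjusted p = 0.0512) and without double-knockout replicates 1 or 2, saline-infused replicates 1, 2 or 3 or wild-type replicate 3 (highest adjusted p = 0.114) respectively. Of 18 measured genes reported to respond to gastrin, 0 passed in limma in either direction on the deposited values and 1 was lower after quantile normalization. Their median log2 fold change was -0.15.

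Most ECL cell genes did not pass between these groups, both of which lack gastrin. Chga, encoding chromogranin A of endocrine secretory granules, was measured at 2041, 2125 and 2098 in the saline-infused knockout (mean 2088 ± 42.9) and 2987, 2499 and 2262 in the double knockout (mean 2583 ± 369.7). The 3 double-knockout values were the higher ones but the difference did not pass (log2 fold change 0.30 ± 0.21, adjusted p = 0.481, 95% interval -0.18 to 0.78). Wild-type values were far above both, at 6049, 10288 and 7063. Against those, which enter both comparisons, Chga differed by -1.57 ± 0.21 (adjusted p = 0.00833) in the double knockout and by -1.86 ± 0.21 (adjusted p = 0.00898) in the saline-infused knockout. Chgb, a second granule protein, gave -0.04 with an interval of -0.93 to 0.85 (adjusted p = 0.996), which spans falls and rises. Hdc, the enzyme that makes histamine, was chosen after its values were seen and lay near the noise at 212, 73 and 22 in the saline-infused and 71, 12 and 93 in the double knockout. Of 13 measured genes of ECL cells and granules, 1 rose and 0 fell, with a median of -0.04.

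The riser of that list was Syp, encoding synaptophysin, a membrane protein of small secretory vesicles, at 377, 352 and 407 in the saline-infused knockout (mean 379 ± 27.5) and 586, 469 and 570 in the double knockout (mean 542 ± 63.4) (log2 fold change 0.51 ± 0.11, adjusted p = 0.0308). Its second probe set did not pass. Sst, encoding somatostatin, was the only one of 14 measured genes of other endocrine cells to pass on the deposited values. It read 5681, 8169 and 6216 in the saline-infused knockout (mean 6689 ± 1309.6) and 13737, 12221 and 9744 in the double knockout (mean 11901 ± 2016). Every double-knockout value exceeded every saline-infused value (log2 fold change 0.83 ± 0.20, adjusted p = 0.0409; 1.03 with adjusted p = 0.013 after quantile normalization). Wild-type values were higher still, at 16905, 23726 and 15346. The Sst call ended without double-knockout replicates 1 or 2, saline-infused replicates 1 or 3 or wild-type replicate 1 (highest adjusted p = 0.134), and that of Syp without double-knockout replicates 1 or 3 or saline-infused replicates 1 or 2 (highest adjusted p = 0.104). Ghrl, encoding ghrelin of the X/A-like cells, read 30263, 28305 and 30624 in the saline-infused knockout (mean 29731 ± 1248) and 26690, 22389 and 23919 in the double knockout (mean 24333 ± 2180.1), a fold change of -0.29 ± 0.10 (adjusted p = 0.136) and of 0.08 (adjusted p = 0.736) after quantile normalization.

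**Figure D3:**
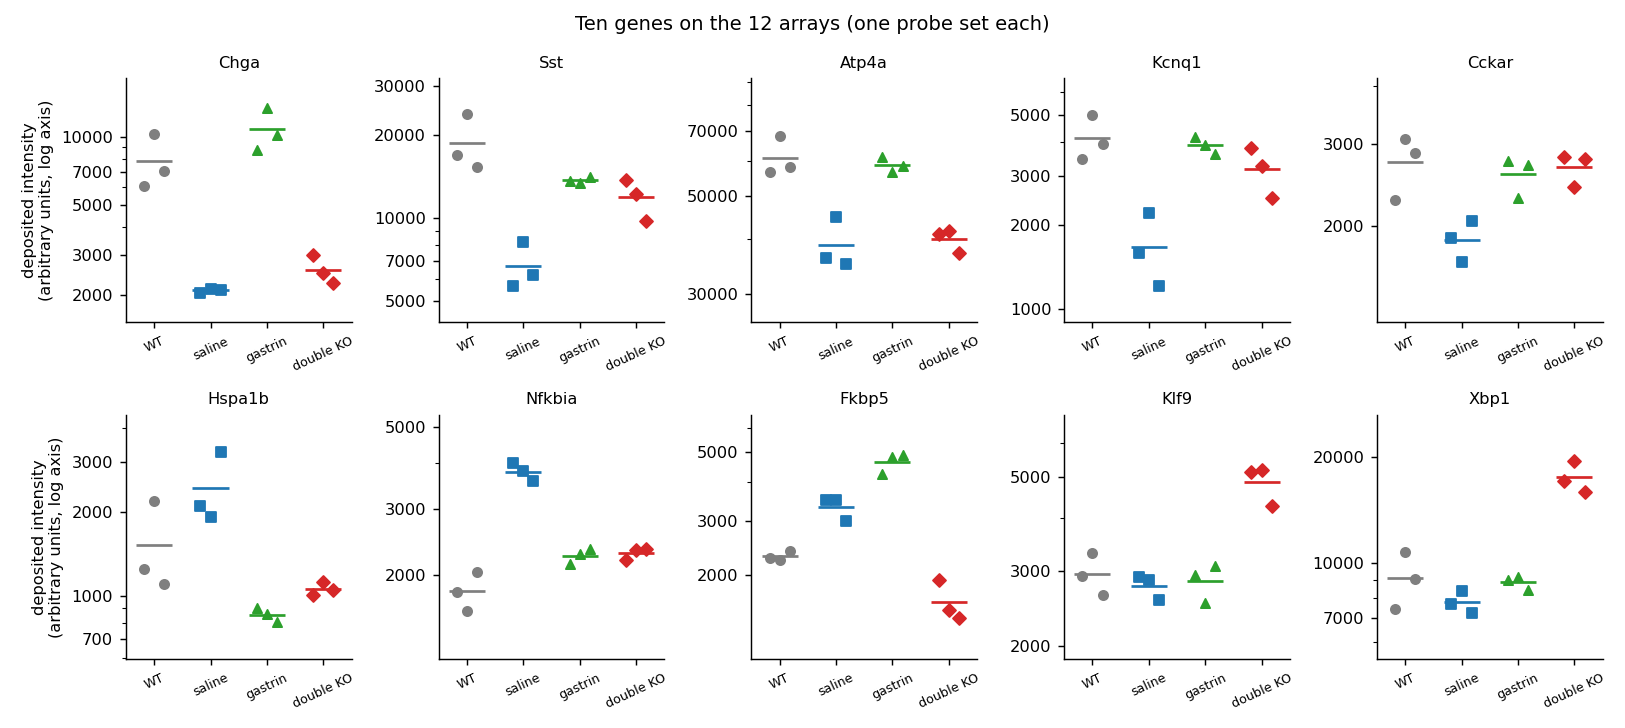
Deposited intensity (arbitrary units, log axis) of 10 genes on each of the 12 arrays, by group, with 1 probe set per gene; points are arrays and horizontal bars are group means. Chga lies between 2041 and 2987 in the saline-infused and double knockout and at 6049 or more in wild type, while Sst, Kcnq1, Klf9 and Xbp1 are higher and Hspa1b, Nfkbia and Fkbp5 lower in the double knockout than in the saline-infused knockout.

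Few parietal cell genes passed. Of 20 measured genes, 1 rose and 1 fell on the deposited values, and 3 rose and 0 fell after quantile normalization. The median was -0.04 and 0.12 respectively, so its sign turned. Kcnq1, the potassium channel pore that supports acid secretion, was measured at 1598, 2221 and 1216 in the saline-infused knockout (mean 1678 ± 507) and 3802, 3276 and 2508 in the double knockout (mean 3195 ± 651). The double-knockout values all lay above the saline-infused values (log2 fold change 0.95 ± 0.24, adjusted p = 0.0484; 0.95 with adjusted p = 0.0278 after quantile normalization) and overlapped the wild-type values of 3463, 4991 and 3913. Kcne2, its auxiliary subunit in the parietal cell, was chosen after its values were seen. It read 3202, 4085 and 3680 in the saline-infused knockout (mean 3656 ± 442) and 5485, 5237 and 4119 in the double knockout (mean 4947 ± 728) and did not pass on the deposited values (log2 fold change 0.43 ± 0.13, adjusted p = 0.0955). It passed after quantile normalization (0.50 with adjusted p = 0.0304), and also with bright probe sets alone and without double-knockout replicate 3. Atp4a and Atp4b, the subunits of the proton pump, are among the brightest genes of the array. Atp4a read 36260, 44845 and 35107 in the saline-infused knockout (mean 38737 ± 5321) and 41032, 41586 and 37144 in the double knockout (mean 39921 ± 2421), with overlapping groups, and its fold change was 0.05 ± 0.11 (adjusted p = 0.864) on the deposited and 0.50 (adjusted p = 0.0101) on the normalized values. Atp4b gave -0.30 ± 0.09 (adjusted p = 0.0917) and 0.28 (adjusted p = 0.0981). The faller was Car2, a carbonic anhydrase, at 63629, 60980 and 53508 in the saline-infused against 40220, 42526 and 43599 in the double knockout (log2 fold change -0.49 ± 0.08, adjusted p = 0.0109), which turned to 0.05 (adjusted p = 0.657) after quantile normalization. The Kcnq1 call ended without double-knockout replicates 1 or 2, saline-infused replicates 1 or 3 or wild-type replicates 1, 2 or 3 (highest adjusted p = 0.151).

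Beyond the brightest probe sets, Ppargc1a, a coactivator of mitochondrial genes, rose at 1 of its 5 probe sets, from 239, 221 and 130 to 572, 593 and 516 (log2 fold change 1.56 ± 0.25, adjusted p = 0.0116), while its brightest gave -0.03. Ezr, the ezrin of the canalicular membrane, fell at 1 of 2 probe sets (log2 fold change -0.52 ± 0.11, adjusted p = 0.0288). That call ended without double-knockout replicates 1, 2 or 3 or saline-infused replicates 1 or 2 (highest adjusted p = 0.0988). Cblif, encoding intrinsic factor, differed by -0.26 ± 0.13 (adjusted p = 0.3). The summed intensity of the 20 parietal genes was 262705 to 301769 on the saline-infused arrays and 243721 to 256388 on the double-knockout arrays.

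Among 10 measured chief cell genes 2 rose and 3 fell on the deposited values, and 2 rose and 0 fell after quantile normalization. Pnliprp2, a pancreatic lipase-related protein, was measured at 3051, 3077 and 3754 in the saline-infused knockout (mean 3294 ± 399) and 6864, 6859 and 6091 in the double knockout (mean 6605 ± 445). It was 2.01-fold higher with no overlap (log2 fold change 1.01 ± 0.15, adjusted p = 0.00957; 1.06 with adjusted p = 0.00746 normalized), and its second probe set rose by 0.83. Wild-type values of 4251, 5454 and 5186 lay between the groups. Nfib, a transcription factor of the nuclear factor I family, rose at 3 of 4 probe sets and is described with the largest rises. Rab3d, a small GTPase of zymogen granules, rose at 1 of 4 probe sets, from 2260, 2145 and 1810 to 4025, 4867 and 3290 (log2 fold change 0.96 ± 0.14, adjusted p = 0.009), and its brightest probe set gave -0.10. The 3 that fell were the very bright Pgc (pepsinogen C), Clps (colipase) and Chia1 (an acidic chitinase). Pgc read 98408, 94278 and 87548 in the saline-infused and 57602, 59769 and 61143 in the double knockout, a fold change of -0.65 ± 0.07 (adjusted p = 0.00374) that became -0.09 (adjusted p = 0.382) after normalization. Clps and Chia1 gave -0.63 and -0.59, and -0.08 and -0.03 normalized. Bhlha15, the transcription factor of mature chief cells, gave 0.54 ± 0.22 (adjusted p = 0.195). The Chia1 call ended without double-knockout replicate 1 or saline-infused replicate 1 (highest adjusted p = 0.0578), and that of the second Pnliprp2 probe set without double-knockout replicates 1 or 2 or saline-infused replicates 1 or 2 (highest adjusted p = 0.0841).

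Surface mucous cell genes were mostly lower on the deposited values, and all but 1 of these calls ended after quantile normalization. Of 11 measured genes, 9 fell and 0 rose, with a median of -0.56. After quantile normalization 1 fell and 0 rose, with a median of -0.10. Muc5ac, the main mucin of the gastric surface, was measured at 72491, 75499 and 63430 in the saline-infused knockout (mean 70473 ± 6282) and 44849, 44461 and 41745 in the double knockout (mean 43685 ± 1691). The groups did not overlap (log2 fold change -0.69 ± 0.10, adjusted p = 0.0096), and the normalized value was -0.20 (adjusted p = 0.113). Gkn1 and Gkn2, gastrokines of the surface cells, gave -0.61 and -0.56. Psca, a surface antigen, and Anxa10, an annexin, gave -0.60 and -0.65. The sign of Tff1, a trefoil peptide, and of Ctse, a cathepsin, turned after normalization. The calls of Gkn2, Tff1 and Ctse ended without double-knockout replicates 1 or 2 or saline-infused replicates 1 or 2 (highest adjusted p = 0.0805), without double-knockout replicates 1, 2 or 3, saline-infused replicates 1 or 2 or wild-type replicate 1 (highest adjusted p = 0.12) and without double-knockout replicates 1 or 2, saline-infused replicates 1 or 2 or wild-type replicate 1 (highest adjusted p = 0.112). Lgals4, a galectin of gut epithelium, was the gene that passed both ways by its brightest probe set. Dimmer probe sets passed both ways for Tspan8, described with the largest falls, and for Anxa10 (log2 fold change -0.61 ± 0.12, adjusted p = 0.024; -0.57 with adjusted p = 0.00784 normalized). Lgals4 read 16476, 20001 and 16003 in the saline-infused knockout (mean 17493 ± 2185) and 9081, 11946 and 8097 in the double knockout (mean 9708 ± 1999.6), with every double-knockout value below every saline-infused value (log2 fold change -0.86 ± 0.16, adjusted p = 0.0195; -0.67 with adjusted p = 0.0229 normalized). Its wild-type values were 10214, 9324 and 10109. Its call ended without double-knockout replicate 1 or saline-infused replicates 1 or 2 (highest adjusted p = 0.0704). The summed intensity of the 11 genes was 517297 to 625505 on the saline-infused and 367691 to 408602 on the double-knockout arrays. Of the 5 measured mucous neck cell genes 2 fell. They were Tff2, a trefoil peptide whose fold change of -0.46 became 0.03 after normalization, and Wfdc2, a small secreted protein, at 3212, 3600 and 3101 in the saline-infused against 2424, 2384 and 1914 in the double knockout (log2 fold change -0.57 ± 0.14, adjusted p = 0.0459; -0.57 with adjusted p = 0.0211 normalized). The Wfdc2 call ended whichever of the 9 arrays was left out (highest adjusted p = 0.131).

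The largest rises were ranked among probe sets whose brighter group mean was at least 417, the median of all probe-set means. In 11 of these 12 rises the saline-infused mean lay below 417, so they entered the ranking through the double knockout. Of the 12, Zfhx3, Id4, Nfib, Zbtb20 and Cbfa2t3 encode regulators of transcription. Zfhx3, a large zinc-finger homeobox factor, was measured at 161, 125 and 120 in the saline-infused knockout (mean 135 ± 22.4) and 567, 542 and 724 in the double knockout (mean 611 ± 98.7). All double-knockout values were more than 3-fold above all saline-infused values (log2 fold change 2.18 ± 0.18, adjusted p = 0.00105), and 2 of its 3 probe sets passed. Id4, an inhibitor of basic helix-loop-helix factors, read 329, 332 and 269 in the saline-infused knockout (mean 310 ± 35.5) and 853, 1210 and 1091 in the double knockout (mean 1051 ± 182), a rise of 1.75 ± 0.16 (adjusted p = 0.00151) seen at all 3 of its probe sets. Its wild-type values, 301, 276 and 348, were close to the saline-infused ones. Nfib read 412, 411 and 325 in the saline-infused knockout (mean 383 ± 49.9) and 1058, 1271 and 1207 in the double knockout (mean 1179 ± 109) at its most changed probe set, a rise of 1.63 ± 0.15 (adjusted p = 0.00151). The calls of its other 2 probe sets that passed ended without double-knockout replicates 1, 2 or 3, saline-infused replicates 2 or 3 or wild-type replicate 1 (highest adjusted p = 0.0959) and without double-knockout replicates 1, 2 or 3, saline-infused replicates 2 or 3 or wild-type replicates 1, 2 or 3 (highest adjusted p = 0.125). Zbtb20, a zinc-finger repressor, read 116, 93 and 17 in the saline-infused and 421, 373 and 1148 in the double knockout. Saline-infused replicate 3 lay in the noise, so the size of the fitted rise of 3.31 ± 0.76 (adjusted p = 0.0386), at 1 of 3 probe sets, is uncertain. Its call ended whichever of the 9 arrays was left out (highest adjusted p = 0.103). Cbfa2t3, a corepressor, read 207, 137 and 98 in the saline-infused and 486, 600 and 445 in the double knockout at 1 of 4 probe sets, a rise of 1.85 ± 0.28 (adjusted p = 0.00969). Its wild-type values, 410, 258 and 277, lay between the groups.

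The other 7 rises came from genes of RNA handling, signalling, transport and the cytoskeleton. Luc7l2, a splicing factor, read 507, 606 and 562 in the saline-infused knockout (mean 558 ± 49.6) and 1598, 1867 and 1943 in the double knockout (mean 1803 ± 181). It rose at 3 of 5 probe sets, here by 1.69 ± 0.12 (adjusted p = 0.000702), with no overlap. Ybx1, a nucleic acid binding protein, read 123, 158 and 241 in the saline-infused and 571, 846 and 725 in the double knockout at its dimmer probe set (log2 fold change 2.07 ± 0.26, adjusted p = 0.00513) and rose by 0.40 ± 0.10 (adjusted p = 0.0448) at its bright one. Irak1, a kinase of interleukin-1 and Toll-like receptor signalling, read 252, 370 and 370 in the saline-infused and 1061, 1079 and 1042 in the double knockout (log2 fold change 1.70 ± 0.24, adjusted p = 0.00789; 2 of 4 probe sets). Mapre2, which binds growing microtubule ends, read 380, 366 and 310 in the saline-infused and 1169, 2037 and 1664 in the double knockout. That rise of 2.17 ± 0.24 (adjusted p = 0.00353) was at 1 of 4 probe sets, and the other 3 gave between -0.18 and 0.07. Slco3a1, an organic anion transporter, Fibp, a fibroblast growth factor binding protein, and Mrpl19, of the mitochondrial ribosome, rose by 2.16, 2.04 and 1.73. They passed as higher at 1 of 3, 2 of 4 and 2 of 3 probe sets. For each of the 3 genes, 1 saline-infused value lay in the noise, so the sizes of these rises are uncertain. Their calls ended without double-knockout replicates 1, 2 or 3 or saline-infused replicates 1 or 3 (highest adjusted p = 0.087), without double-knockout replicates 1, 2 or 3, saline-infused replicates 1, 2 or 3 or wild-type replicates 1 or 2 (highest adjusted p = 0.131) and without double-knockout replicates 1, 2 or 3 or saline-infused replicate 1 (highest adjusted p = 0.0763).

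**Figure D4:**
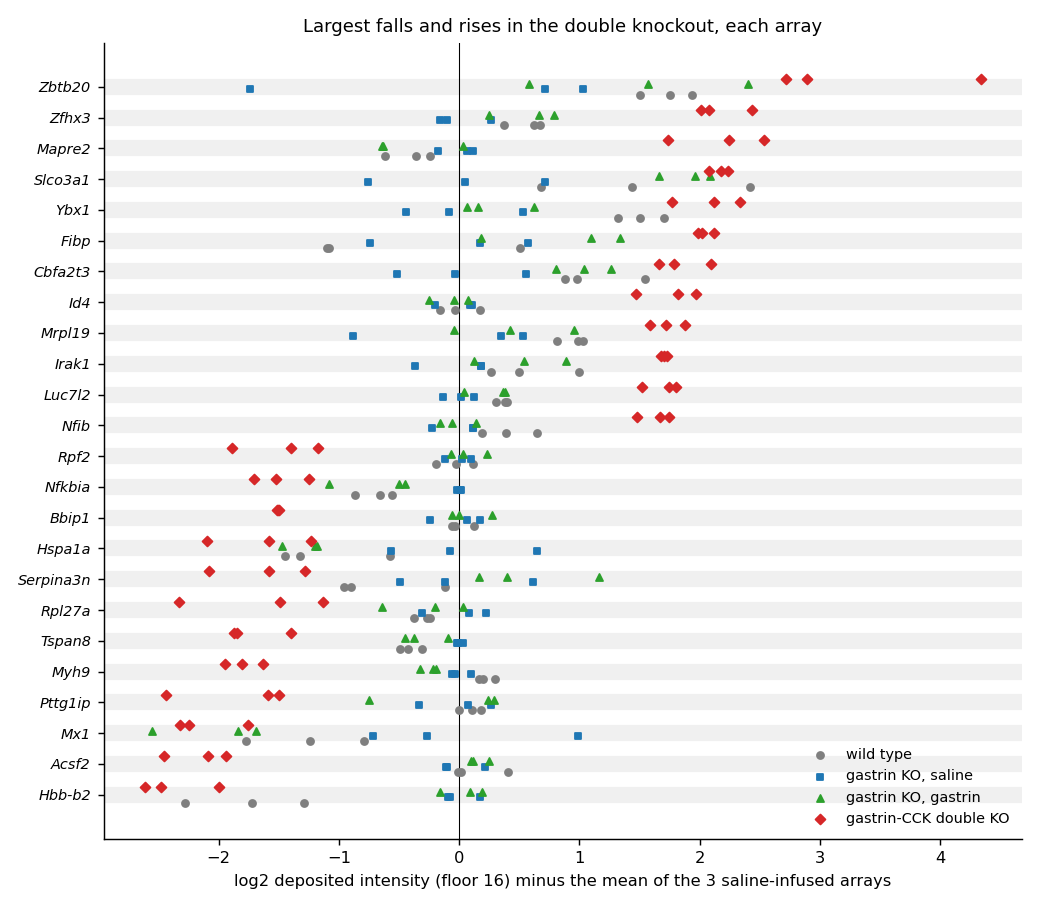
Log2 deposited intensity of the 12 largest falls and 12 largest rises on each of the 12 arrays, relative to the mean of the 3 saline-infused arrays of that probe set; points are arrays, coloured by group. The double-knockout points lie outside all other 9 arrays in 20 of the 24 genes, 11 rises and 9 falls, beside 7.47% of all probe sets. The genes were picked for large changes without overlap with the saline-infused arrays, so this count is not a separate result.

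The 12 largest falls came from genes of varied function. Myh9, the heavy chain of nonmuscle myosin IIA, was measured at 8544, 9338 and 8372 in the saline-infused knockout (mean 8751 ± 515) and 2496, 2827 and 2269 in the double knockout (mean 2531 ± 281). The fall was 3.47-fold with little spread (log2 fold change -1.79 ± 0.09, adjusted p = 9.43e-05), yet it was seen at 2 of 4 probe sets, the others giving 0.01 and 0.09. Acsf2, of the acyl-CoA synthetase family, read 1157, 1162 and 1446 in the saline-infused knockout (mean 1255 ± 165) and 228, 294 and 326 in the double knockout (mean 283 ± 50). Its single probe set fell by 2.16 ± 0.16 (adjusted p = 0.000915), with every double-knockout value below every saline-infused value. Bbip1, a subunit of the ciliary BBSome complex, read 20359, 18852 and 15250 in the saline-infused against 6387, 6348 and 6305 in the double knockout (log2 fold change -1.51 ± 0.12, adjusted p = 0.000992). Tspan8, a tetraspanin of the surface mucous list, fell from 2198, 2272 and 2213 to 608, 620 and 846 (log2 fold change -1.70 ± 0.14, adjusted p = 0.000992; 2 of 4 probe sets). Hbb-b2, an adult beta-globin of red cells, read 423, 429 and 508 in the saline-infused against 81, 74 and 113 in the double knockout (log2 fold change -2.36 ± 0.25, adjusted p = 0.00296). This fall passed at 1 of 2 probe sets. Wild-type values of 93, 185 and 137 lay below the saline-infused ones too, while those of the gastrin-infused knockout, 405, 516 and 480, overlapped them. The part of infusion in this difference was not tested. The 6 measured blood genes had a median of -0.53, with 1 fall, and their summed intensity was 1946 to 2179 on the saline-infused and 1226 to 1421 on the double-knockout arrays. The part of blood in these falls was not tested.

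Mx1, an interferon-induced GTPase, read 1983, 832 and 611 in the saline-infused knockout (mean 1142 ± 737) and 201, 297 and 211 in the double knockout (mean 236 ± 52.8). Wild-type values of 424, 579 and 293 lay below every saline-infused value and overlapped those of the double knockout. The saline-infused arrays spread widely, with replicate 1 highest, and the fold change of -2.11 ± 0.44 (adjusted p = 0.0288) lost its call without double-knockout replicates 1 or 3 or saline-infused replicates 1 or 2 (highest adjusted p = 0.0959). Serpina3n, an acute-phase protease inhibitor, read 780, 603 and 1299 in the saline-infused and 283, 349 and 200 in the double knockout (log2 fold change -1.65 ± 0.38, adjusted p = 0.0385). That call ended without double-knockout replicates 1, 2 or 3, saline-infused replicates 1, 2 or 3 or wild-type replicates 1 or 2 (highest adjusted p = 0.104). Pttg1ip, a binding partner of securin, fell by 1.84 ± 0.33 (adjusted p = 0.0162) at its dimmest probe set only, while the bright ones gave -0.16 and -0.26. The call ended without saline-infused replicates 1 or 2 (highest adjusted p = 0.0562). Rpl27a, of the ribosome, and Rpf2, a ribosome assembly factor, fell at 1 of 2 and 1 of 3 probe sets, with fold changes of -1.65 and -1.48. The Rpl27a call ended without saline-infused replicate 1 (highest adjusted p = 0.0547). All 24 genes passed after quantile normalization too, and with the 6 compared arrays alone 12 of them passed.

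Probe sets of a gene often disagreed. Of 876 genes that passed with a brighter group mean of at least 417, 602 had more than 1 probe set. In 128 of these another probe set passed in the same direction, in 11 another passed in the opposite direction, and in 240 another had the opposite sign. Of 4956 genes with 2 or more probe sets, 47 passed at all of them in the same direction, 17 higher and 30 lower. Of these, 15 of the higher and 9 of the lower passed at all probe sets after normalization as well. The genes of this kind named next were chosen after their values were seen. S100a10, the partner of annexin A2, read 4325, 6191 and 4513 in the saline-infused knockout (mean 5009.7 ± 1027) and 1772, 2435 and 1643 in the double knockout (mean 1950 ± 425). It fell with no overlap (log2 fold change -1.36 ± 0.21, adjusted p = 0.00957), and its second probe set gave -1.30. Nupr1, a stress-induced chromatin protein, read 20234, 17747 and 19042 in the saline-infused against 7901, 8901 and 10909 in the double knockout (log2 fold change -1.05 ± 0.13, adjusted p = 0.00517; -0.86 with adjusted p = 0.0163 normalized). Slc2a1, the glucose transporter GLUT1, fell at its 3 probe sets, with -0.80, -0.64 and -0.52, and Dgat2, of triglyceride synthesis, at both, with -0.76 and -0.74. Ppp3ca, the catalytic subunit of calcineurin, read 1629, 1521 and 1630 in the saline-infused knockout (mean 1593 ± 62.6) and 3134, 3328 and 3140 in the double knockout (mean 3201 ± 110.3). Its 3 probe sets rose by 1.01, 0.99 and 0.71. Sox9, a factor of progenitor cells, rose by 1.08 and 1.18. The second probe sets of Dgat2 and Sox9 lost their calls without saline-infused replicate 2 (highest adjusted p = 0.0562) and without double-knockout replicates 1 or 2 or saline-infused replicates 1, 2 or 3 (highest adjusted p = 0.087), and the 3 of Slc2a1 without double-knockout replicates 1 or 3 or saline-infused replicates 1 or 2 (highest adjusted p = 0.0796), without double-knockout replicates 1 or 3 or saline-infused replicates 1 or 2 (highest adjusted p = 0.0841) and without double-knockout replicates 1, 2 or 3, saline-infused replicates 1 or 2 or wild-type replicate 1 (highest adjusted p = 0.124).

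Inducible heat shock genes and the NF-kappa B inhibitor Nfkbia fell, and their promoters are shown because matches to inducible elements lie in them. Hspa1a and Hspa1b encode inducible HSP70 and are near-identical neighbours, so their probe sets may cross-react. The sequences below are the 250 bases before the start of each gene, from RefSeq on build GRCm38.p6, 5′ to 3′ on the gene's strand, the minus strand in all 3. Capitals mark the match to the motif searched: GAANNTTC, the core of a heat shock element, in the first 2, and the NF-kappa B consensus in the third. The Hspa1a window is chr17:34972157-34972406, that of Hspa1b chr17:34959239-34959488 and that of Nfkbia chr12:55492648-55492897.
Hspa1a: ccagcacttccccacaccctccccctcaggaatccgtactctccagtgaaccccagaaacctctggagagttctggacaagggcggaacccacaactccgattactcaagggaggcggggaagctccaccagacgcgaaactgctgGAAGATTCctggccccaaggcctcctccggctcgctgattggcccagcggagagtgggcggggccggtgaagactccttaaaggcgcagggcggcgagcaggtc
Hspa1b: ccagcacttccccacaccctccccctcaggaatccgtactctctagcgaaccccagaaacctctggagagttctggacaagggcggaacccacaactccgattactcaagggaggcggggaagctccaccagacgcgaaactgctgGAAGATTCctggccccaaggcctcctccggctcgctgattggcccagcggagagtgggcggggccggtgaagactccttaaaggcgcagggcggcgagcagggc
Nfkbia: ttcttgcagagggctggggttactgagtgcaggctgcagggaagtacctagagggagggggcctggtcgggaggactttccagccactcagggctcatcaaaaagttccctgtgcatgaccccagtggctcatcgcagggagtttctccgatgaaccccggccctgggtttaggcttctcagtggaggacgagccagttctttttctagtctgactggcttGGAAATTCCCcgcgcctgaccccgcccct
The heat shock match began 104 bases before the start in both HSP70 genes, whose windows differed at 3 of 250 positions, and the NF-kappa B match began 29 bases before the start of Nfkbia. Over 32851 promoter windows of the same length, searched on both strands, 6.69% held the first motif and 7.25% the second. A match describes the sequence and is not a measured site.

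Hspa1a was measured at 396, 282 and 656 in the saline-infused knockout (mean 445 ± 192) and 98, 140 and 178 in the double knockout (mean 139 ± 40). The groups did not overlap (log2 fold change -1.64 ± 0.35, adjusted p = 0.0302). Wild-type values of 153, 281 and 167 lay below every saline-infused value and overlapped those of the double knockout. Against wild type Hspa1a differed by -0.52 ± 0.35 (adjusted p = 0.467) in the double knockout. In the saline-infused knockout it differed by 1.12 ± 0.35 (adjusted p = 0.143). Hspa1b read 2092, 1915 and 3283 in the saline-infused knockout (mean 2430 ± 744) and 1008, 1118 and 1049 in the double knockout (mean 1058 ± 55.6) at its brightest probe set, where saline-infused replicate 3 was highest, and fell by 1.16 ± 0.26 (adjusted p = 0.0374). Its second passing probe set gave -1.32. Dnajb1, an HSP40 cochaperone, fell by 0.65 ± 0.12 (adjusted p = 0.0201) at 1 of 2 probe sets. Of 12 measured heat shock genes, 2 fell and 0 rose, with a median of -0.19. Hsp90aa1 and Hspd1 gave -0.23 and 0.10. These calls depended on which arrays entered the fit. That of Hspa1a ended without double-knockout replicates 1 or 2 or saline-infused replicates 1 or 3 (highest adjusted p = 0.1), that of the brightest Hspa1b probe set without double-knockout replicates 1, 2 or 3, saline-infused replicates 1, 2 or 3 or wild-type replicate 1 (highest adjusted p = 0.114), that of the second without double-knockout replicates 1, 2 or 3, saline-infused replicates 1, 2 or 3 or wild-type replicate 3 (highest adjusted p = 0.115) and that of Dnajb1 without double-knockout replicate 1 or saline-infused replicates 1 or 2 (highest adjusted p = 0.0661). Nfkbia was measured at 3994, 3821 and 3572 in the saline-infused knockout (mean 3796 ± 212) and 2197, 2333 and 2347 in the double knockout (mean 2292 ± 82.9) at its brighter passing probe set. It fell by 0.73 ± 0.09 (adjusted p = 0.00513), and the dimmer of the pair went from 981, 999 and 1001 to 305, 345 and 418 (log2 fold change -1.49 ± 0.18, adjusted p = 0.00422). Wild-type values at the brighter were 1793, 1600 and 2031, below both groups. At the dimmer they were 673, 546 and 631, between the groups. Both calls held whichever of the 9 arrays was left out. The other 2 probe sets did not pass, at -0.53 (adjusted p = 0.0815) and -0.52 (adjusted p = 0.137).

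Junb, an immediate early factor of the AP-1 complex, was measured at 2857, 2635 and 2286 in the saline-infused knockout (mean 2593 ± 288) and 1334, 1549 and 1261 in the double knockout (mean 1381 ± 149.7). It fell by 0.91 ± 0.17 (adjusted p = 0.0195) and the wild-type values of 1404, 1232 and 1680 lay with those of the double knockout. Jund fell by 0.58 ± 0.13 (adjusted p = 0.0352) but did not pass after normalization (adjusted p = 0.0791). Of 17 measured immediate early genes these 2 fell and 0 rose, with a median of -0.06, while Fos and Egr1 gave 0.13 and 0.42 with wide spread among the double-knockout arrays. The calls of Junb and Jund ended without double-knockout replicates 1 or 3 or saline-infused replicates 1 or 2 (highest adjusted p = 0.0681) and without double-knockout replicates 1 or 3, saline-infused replicates 1 or 2 or wild-type replicates 1 or 3 (highest adjusted p = 0.104).

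Of 14 measured genes that glucocorticoids induce, 3 fell and 0 rose by their brightest probe set, with a median of -0.47 (-0.28 normalized, with 2 falls). Fkbp5, a cochaperone of the steroid receptors, was measured at 3499, 3501 and 2993 in the saline-infused knockout (mean 3331 ± 293) and 1939, 1545 and 1451 in the double knockout (mean 1645 ± 259). Every double-knockout value lay below every saline-infused value and below the wild-type values of 2274, 2244 and 2395 (log2 fold change -1.03 ± 0.12, adjusted p = 0.00361; 1 of 2 probe sets). Mt1, a metallothionein, fell by 0.90 ± 0.12 (adjusted p = 0.00567) but gave -0.41 (adjusted p = 0.0586) after normalization. Ddit4, an inhibitor of mTOR signalling, fell by 0.59 ± 0.14 (adjusted p = 0.0444). Its call ended whichever of the 9 arrays was left out (highest adjusted p = 0.14). The probe sets of Klf9, a Krüppel-like factor induced by the same hormones, went apart: 3 of 7 rose, the brightest of these from 2894, 2854 and 2561 to 5127, 5173 and 4258 (log2 fold change 0.81 ± 0.12, adjusted p = 0.00957), and the brightest of all gave -0.30 ± 0.10 (adjusted p = 0.112). Cdkn1a, the cell cycle inhibitor p21, likewise rose at 1 of 2 probe sets, from 1020, 1170 and 921 to 2793, 3855 and 2442 (log2 fold change 1.53 ± 0.25, adjusted p = 0.0118), with -0.37 ± 0.14 (adjusted p = 0.16) at the other.

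Xbp1, a transcription factor that builds the secretory apparatus of chief and plasma cells, was measured at 7676, 8341 and 7255 in the saline-infused knockout (mean 7757 ± 548) and 17151, 19443 and 15886 in the double knockout (mean 17493 ± 1803) at its most changed probe set. The double knockout was 2.25-fold higher with no overlap (log2 fold change 1.17 ± 0.13, adjusted p = 0.00361; 1.42 with adjusted p = 0.000668 normalized), and wild-type values were 7431, 10764 and 9041. Another of its 4 probe sets went the other way, from 1291, 1090 and 1367 to 689, 499 and 892 (log2 fold change -0.88 ± 0.22, adjusted p = 0.0468). That call ended without double-knockout replicates 1 or 2, saline-infused replicates 1, 2 or 3 or wild-type replicates 1, 2 or 3 (highest adjusted p = 0.121). A further Xbp1 probe set gave log2 fold changes of 0.40 to 0.49 with single arrays left out. It did not pass on the deposited values but passed after quantile normalization. Dnajc3, a chaperone of the endoplasmic reticulum, rose at 2 of 5 probe sets, by 1.03 and 0.75, and its brightest gave 0.55 ± 0.15 (adjusted p = 0.0662). By brightest probe sets, 0 of 18 folding genes of that compartment, Xbp1 among them, passed in limma on the deposited values, and 2 rose after normalization. The Dnajc3 calls ended without double-knockout replicates 1 or 3 or saline-infused replicates 1 or 2 (highest adjusted p = 0.0632) and without double-knockout replicates 1, 2 or 3 or saline-infused replicates 1, 2 or 3 (highest adjusted p = 0.079).

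In glycogen metabolism 2 of 11 measured genes rose and 0 fell. Gys1, glycogen synthase, read 240, 272 and 145 in the saline-infused knockout (mean 219 ± 66.1) and 558, 494 and 362 in the double knockout (mean 471 ± 99.9), and Ppp1r3c, a subunit that targets a phosphatase to glycogen, read 193, 167 and 196 in the saline-infused knockout (mean 185 ± 15.9) and 301, 432 and 336 in the double knockout (mean 356 ± 67.8). Neither showed overlap (Gys1 log2 fold change 1.13 ± 0.25, adjusted p = 0.0338, and Ppp1r3c log2 fold change 0.93 ± 0.19, adjusted p = 0.0241). The calls ended without double-knockout replicates 1 or 2, saline-infused replicates 1 or 3 or wild-type replicate 1 (highest adjusted p = 0.113) and without double-knockout replicates 2 or 3 or saline-infused replicates 1, 2 or 3 (highest adjusted p = 0.0772). Lpl, lipoprotein lipase, rose at 1 of 2 probe sets from 788, 901 and 673 to 1945, 1678 and 1495 (log2 fold change 1.12 ± 0.17, adjusted p = 0.00957), with 0.39 ± 0.18 (adjusted p = 0.248) at the brighter. Apoa4, an apolipoprotein of intestinal epithelium, rose at 1 of 2 from 770, 931 and 666 to 2097, 1774 and 1481 (log2 fold change 1.18 ± 0.21, adjusted p = 0.0162). Wild-type values of 1475, 2427 and 1906 were like those of the double knockout. The call ended without double-knockout replicate 1 or saline-infused replicate 1 (highest adjusted p = 0.0604). Acadvl, of mitochondrial fatty acid oxidation, was the 1 riser among 20 fatty acid and triglyceride genes, by 0.38 ± 0.08 (adjusted p = 0.0298). Its call ended without double-knockout replicates 1 or 2 or saline-infused replicates 1 or 3 (highest adjusted p = 0.102). The 23 genes of respiration and the citric acid cycle had a median of -0.05 with 1 fall, and 0.17 with 2 rises after normalization, so their sign also turned with the scaling. Adh7, a gastric alcohol dehydrogenase, fell from 6199, 5341 and 5588 to 3792, 3770 and 3021 at 1 of 2 probe sets (log2 fold change -0.70 ± 0.12, adjusted p = 0.0122). Cybrd1, the iron reductase of the gut surface, fell by 0.63 ± 0.13 (adjusted p = 0.0234). Its call ended without double-knockout replicates 1 or 3 or saline-infused replicates 1 or 2 (highest adjusted p = 0.0849). Gsta4 and Aldh3a1, enzymes that clear lipid aldehydes, fell on the deposited values, with -0.57 and -0.70, and gave -0.04 and -0.36 normalized, without passing. The Aldh3a1 call ended without double-knockout replicate 1 or saline-infused replicates 1 or 2 (highest adjusted p = 0.075).

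Genes of cells that scrapings can bring along were given as lists. Of 9 mast cell genes 1 rose. It was Kit, the stem cell factor receptor, at 675, 718 and 637 in the saline-infused knockout (mean 677 ± 40.5) and 1209, 1116 and 1057 in the double knockout (mean 1127 ± 76.6) (log2 fold change 0.74 ± 0.08, adjusted p = 0.00311; 1 of 2 probe sets). Wild-type values were 956, 1043 and 989. The mast cell proteases Mcpt2, Cpa3 and Cma1 gave -0.00112, -0.22 and -0.15 and did not pass. Of 18 interferon response genes 1 fell, Mx1, and the list median was -0.74 (-0.75 normalized). Against wild type the list median was 0.72 in the saline-infused knockout and 0.20 in the double knockout. Rsad2, an antiviral enzyme of that list, read 9059, 3665 and 3107 in the saline-infused against 1588, 2783 and 1533 in the double knockout (adjusted p = 0.0887), and Ifit1, chosen after its values were seen, 5099, 1355 and 1316 in the saline-infused against 477, 1259 and 968 in the double knockout (adjusted p = 0.211). Saline-infused replicate 1 was the highest array in both. The summed intensity of the list was 20501 to 45605 on the saline-infused and 15534 to 22154 on the double-knockout arrays.

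Forestomach genes, which mark squamous tissue at the edge of a scraping, varied widely within both groups, with summed intensities of 36428 to 103381 and 19935 to 80360. Of 18, 2 fell: Sprr1a, a cornified envelope protein, from 15099, 14802 and 18333 to 7745, 7665 and 7997 (log2 fold change -1.04 ± 0.24, adjusted p = 0.0395; adjusted p = 0.0805 normalized), and Sfn, an epithelial 14-3-3 protein, with -1.08 ± 0.24 (adjusted p = 0.0363). The part of squamous tissue in these falls was not tested. The calls ended whichever of the 9 arrays was left out (highest adjusted p = 0.113) and without double-knockout replicates 1, 2 or 3, saline-infused replicates 1, 2 or 3 or wild-type replicate 3 (highest adjusted p = 0.0984). Of 9 genes of B and plasma cells 1 rose, Pou2af1, a B cell coactivator, by 0.82 ± 0.20 (adjusted p = 0.0469). Its call ended without double-knockout replicates 1, 2 or 3, saline-infused replicates 1, 2 or 3 or wild-type replicate 1 (highest adjusted p = 0.134). Ighm, the heavy chain of immunoglobulin M, passed as lower at 1 of 11 probe sets (adjusted p = 0.0403), where every saline-infused and double-knockout value lay in the noise, and its brightest probe set gave -0.19 ± 0.14 (adjusted p = 0.503). The call of the dim probe set ended without double-knockout replicates 1, 2 or 3 or saline-infused replicates 1 or 3 (highest adjusted p = 0.114). The list's summed intensity was 20196 to 21697 and 24797 to 26494.

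In 14 lists 0 members passed in limma on the deposited values by their brightest probe set, and in 10 of these 0 passed after quantile normalization either. Among the 195 genes of those 14 lists 35 had an unadjusted p under 0.05 (17.9%), beside 4874 of all 22626 probe sets (21.5%). They included 22 genes of proliferation, with a median of -0.09, 18 of stroma and smooth muscle, with -0.12, 15 of myeloid cells, with -0.17, and 11 of intestinal epithelium, with 0.27. The proliferation markers Mki67 and Pcna gave -0.12 and -0.27. Among 15 circadian clock genes none passed by the brightest probe set, but Npas2, a clock transcription factor, fell at 1 of 2 from 258, 171 and 216 to 57, 77 and 58 (log2 fold change -1.74 ± 0.27, adjusted p = 0.01). Double-knockout replicates 1 and 3 lay in the noise, so the size of this fall is uncertain. Its wild-type values of 91, 113 and 99 lay between the groups, and its brightest probe set gave -0.84 ± 0.31 (adjusted p = 0.149). Clock, the factor that pairs with Bmal1, rose at 1 of 2 probe sets from 370, 310 and 377 to 586, 495 and 537 (log2 fold change 0.62 ± 0.15, adjusted p = 0.0469). Its call ended without double-knockout replicates 1, 2 or 3, saline-infused replicates 1, 2 or 3 or wild-type replicate 1 (highest adjusted p = 0.147). After quantile normalization it gave 0.59 with adjusted p = 0.0502. Over all 34 lists, 11 of the 465 measured genes rose and 30 fell, and 21 rose and 14 fell after normalization. Beside this and each list count above stand 2.9% higher and 2.66% lower among the brightest probe sets of all 12393 genes. After normalization these shares were 3.62% and 3.03%.

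**Figure D5:**
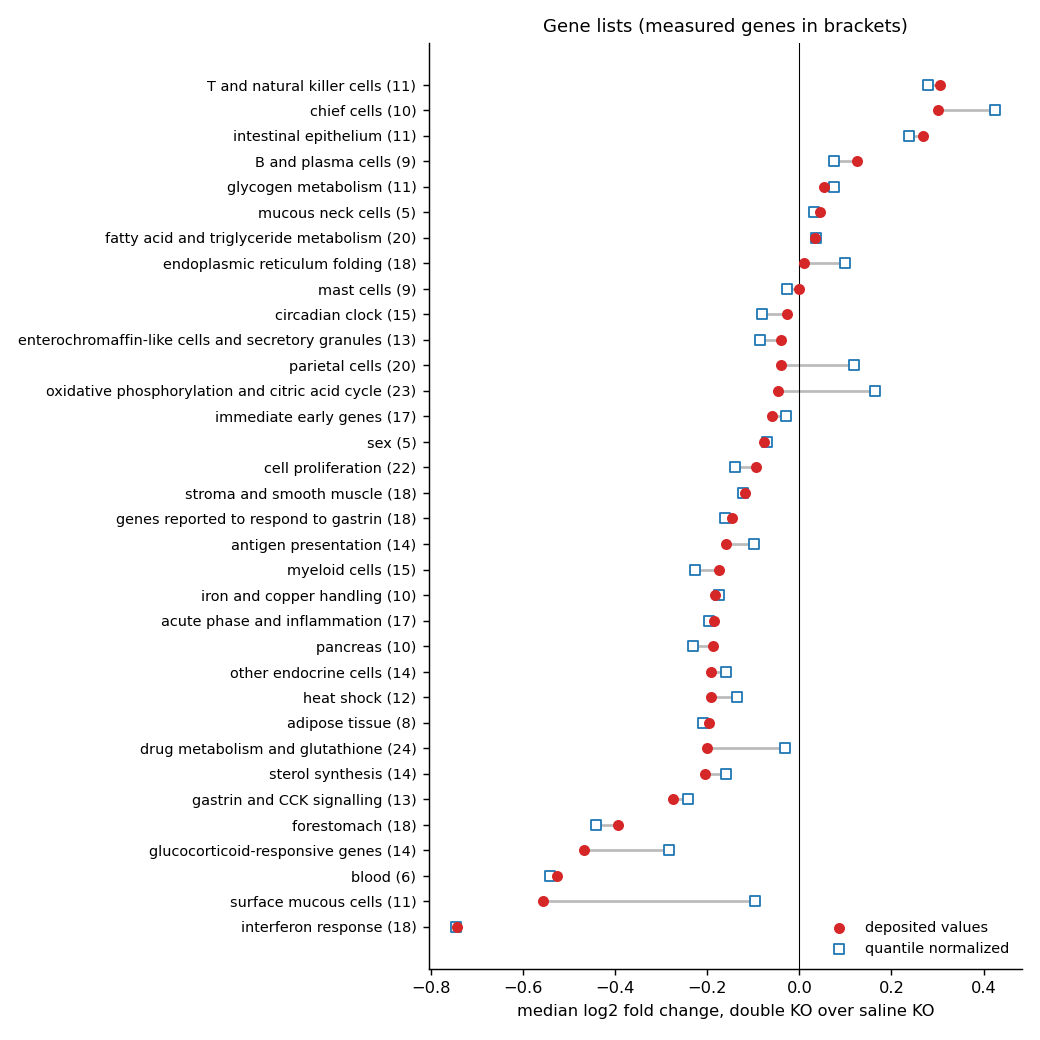
Median log2 fold change of the double knockout over the saline-infused knockout for the 34 gene lists, with the number of measured genes in brackets; filled circles are deposited and open squares quantile-normalized values, and a grey line joins the pair. Surface mucous genes move from -0.56 to -0.10 with normalization, while interferon response genes stay at -0.74 and -0.75.

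Set beside wild type, the same rules called 936 probe sets in the double knockout (4.14%), of which 457 were higher (2.02%) and 479 lower (2.12%). In the saline-infused knockout they called 470 (2.08%), of which 160 were higher (0.707%) and 310 lower (1.37%). These comparisons share the wild-type arrays with each other and the knockout arrays with the main comparison, so their values are given side by side only. The first count fell to 323, 613 and 419 without double-knockout replicate 1, 2 or 3 and to 332, 403 and 407 without wild-type replicate 1, 2 or 3. The second fell to 124, 193 and 212 without saline-infused replicate 1, 2 or 3 and to 285, 94 and 227 without wild-type replicate 1, 2 or 3. Of the 1352 probe sets, the double-knockout arrays lay outside the range of all other 9 arrays in 782 (7.47% of all probe sets did), and the saline-infused arrays in 433 (4.79% did). All 1352 had groups that did not overlap, as did 26.1% of all probe sets. The 1352 were picked by the difference between these groups, so these counts are not a separate result. For Id4 the double knockout differed from wild type by 1.76 ± 0.16 (adjusted p = 0.00131) and the saline-infused knockout by 0.01 ± 0.16 (adjusted p = 1). For Zfhx3 these values were 1.62 ± 0.18 (adjusted p = 0.00449) and -0.56 ± 0.18 (adjusted p = 0.156), and for Myh9 -2.01 ± 0.09 (adjusted p = 2.25e-05) and -0.22 ± 0.09 (adjusted p = 0.248). In these genes the double knockout was the group that stood away. For Sst they were -0.64 ± 0.20 (adjusted p = 0.111) and -1.47 ± 0.20 (adjusted p = 0.0132), for Kcnq1 -0.37 ± 0.24 (adjusted p = 0.439) and -1.32 ± 0.24 (adjusted p = 0.0301), and for Junb -0.05 ± 0.17 (adjusted p = 0.924) and 0.86 ± 0.17 (adjusted p = 0.0415). In these the saline-infused knockout had the larger difference from wild type.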

How the data were processed

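Intensities of 22690 probe sets on 12 arrays were deposited by the authors as linear values that can fall below 0; their scaling and background correction is not given in the sources used here. Per the labels' protocols, about 1 µg of total RNA from mucosal scrapings was labelled with biotin. Values under 16 were raised to 16 and log2 transformed, without further scaling. A limma model (version 3.58.1, R 4.3.3) of 4 group means over the 12 arrays gave the contrasts (8 residual and 1.10 prior degrees of freedom), with Benjamini-Hochberg adjustment over 22626 probe sets; a value was called at an adjusted p under 0.05. The procedure was tested on simulated data. Gene symbols came from GEO's platform annotation: 20380 probe sets have 1 symbol, 691 several and 1555 are not listed; 20351 matched the RefSeq gene table on GRCm38.p6 by gene identifier.

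Named genes are the 12 largest rises and 12 largest falls that passed, had 1 symbol, a brighter group mean of at least 417 and no overlap, with 1 probe set per gene, besides Gast, Cck, Cckar, Cckbr, members of the gene lists that passed and up to 4 brighter members of each list that did not. In list counts a gene is its probe set with the highest mean over the 12 arrays. A list is described by counts and a median and was not tested as a set. Members and lists were chosen with earlier results of these data known. The number of arrays limits the precision, and p-values measure the spread between these samples. An array's noise was read from its values below 0, as the size of the value at percentile 1. Alternatives were quantile normalization, median centring, other floors, brighter probe sets only, an intensity trend in the prior, the Gapdh 3' to 5' ratio as a covariate, the replicate number as a block, the compared arrays alone, and each array left out in turn. The gastrin-infused arrays entered no tested comparison. They entered the estimate of the spread, the quantile normalization, the means over the 12 arrays and the ranges of the other arrays.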

Additional observations from a re-analysis of the deposited data

Results flagged for a closer look

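The signal of 7 control probe sets, none of which entered a comparison, was higher on the double-knockout than on the saline-infused and wild-type arrays. Of these, 6 are for BioB, a bacterial transcript added to the hybridization mixture, and 1 is for mouse 18S ribosomal RNA. The means of the BioB probe sets over the 3 double-knockout arrays (± SD) were 648 ± 138, 731 ± 141 and 1351 ± 303 for the 3', 5' and middle probe sets, against 178, 325 and 292 in the saline-infused knockout and 88.3, 209 and 211 in wild type. A second set of BioB probe sets gave 934 ± 209, 1024 ± 168 and 1535 ± 254 against 255, 344 and 389 in the saline-infused knockout. The 3' probe set of mouse 18S ribosomal RNA read 589 ± 221 in the double knockout, 251 in the saline-infused knockout and 76.3 in wild type.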

How the results depend on the processing

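Of the 24 genes with the largest changes, all kept direction and call under quantile normalization, median centring, an intensity trend and a floor of 64. A floor of 1 ended 1 call, the Gapdh ratio as a covariate ended 4 and the 6 compared arrays alone ended 12. Leaving out a double-knockout or saline-infused array ended between 5 and 9 of them. Outside these 24 genes, the sign turned with quantile normalization for Car2 (0.0508), Ctse (0.0136), Tff1 (0.0945) and Tff2 (0.0323), among others. It also turned for Atp4b and Ghrl, which had not passed on the deposited values. With the same normalization 6 of the 34 list medians moved by more than the spread between arrays. The main count of 1352 became 911 with the Gapdh covariate and 208 with the 6 arrays alone, and lay between 496 and 1251 with 1 array left out. The count against wild type of 936 became 607 and 43 in the same order, and 323 to 706 with 1 array left out. The saline-infused count against wild type of 470 became 47, 22 and 94 to 533, 285 with median centring, 827 with bright probe sets only and 746 with quantile normalization. The cause of these shifts was not tested; fewer arrays were fitted in those left out.

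With the replicate number as a block, 1145 probe sets passed in the main comparison, 703 against wild type in the double knockout and 239 against wild type in the saline-infused knockout. Of the 24 genes the block ended the calls of Serpina3n and Zbtb20 (highest adjusted p = 0.0745 in limma). Among other genes the calls it ended included those of Sfn, Sprr1a, Jund, Ctse, Clock, Pou2af1 and both Hspa1b probe sets that had passed. They also included the less changed passing probe sets of Itpr2, Pnliprp2 and Nfib and the dim one of Ighm. The labels do not say that numbers pair the samples, so the numbers were not treated as pairs. Deviations from the group means correlated at 0.04, 0.51 and 0.23 between same-numbered saline-infused and double-knockout arrays. Between differently numbered arrays of these groups the correlations ran from -0.38 to 0.19. Whether same-numbered arrays share a source of spread was not tested.

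The deposited values give no depth. Probe sets near the noise, such as those of Cck and Hdc, carry little information, and 3 arrays per group leave wide intervals.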
